A study of Mus musculus with 6 samples.

Results

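NF-kappa B is a family of dimeric transcription factors that rest in the cytoplasm and enter the nucleus when a receptor for an inflammatory cytokine or a microbial product is engaged. In the classical arm, a kinase complex marks the inhibitor that holds dimers of RelA, c-Rel and p50 for destruction; while in the alternative arm the p100 precursor is cut to p52, the partner of RelB. Active dimers switch on genes for their own inhibitors and for ubiquitin enzymes that damp the signal, so that a pulse of activity is followed by its brake, and in the artery wall the pathway is known for adhesion molecules, chemokines and survival genes of endothelium, smooth muscle and macrophages. The 10 genes described here were chosen by symbol, and all 10 were found among the 55335 genes of the count table and passed the filter on low counts, as did 16612 genes in all. They are the subunit genes Nfkb1, Nfkb2, Rela, Relb and Rel, the inhibitor family genes Nfkbia, Nfkbie and Nfkbiz, and the ubiquitin enzyme genes Tnfaip3 and Birc3.

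The libraries came from the aorta of wild-type C57BL/6 mice aged 6 weeks (young, 3 mice) or 6 months (aged, 3 mice), with 1 library per mouse and no treatment in the labels. The study's methods describe all mice as male, with the fat around the vessel dissected away before RNA was taken. Between 31049632 and 45832185 reads were counted on genes per library. CPM below are counts relative to library size after scaling by TMM, a method that centres most genes on no difference; while FPKM, given by the authors, are also divided by gene length and are the scale on which different genes are compared. Smooth muscle markers were abundant in every library, at a summed 27960 to 40140 CPM over 6 genes. Young replicate 1 carried Xist, the RNA of the inactive X chromosome, at 305.6 CPM against at most 0.636 elsewhere, which goes against the male label, and held the clock gene Arntl at 49.8 CPM against at most 8.14. Aged replicate 2 lay at -13.4 on the first principal component, inside the range of the young libraries (-52.2 to -10.3) and apart from the other aged libraries (53.8 and 62.7). Fits with 1 library left out are given below for the 10 genes and for the number of genes called. The ratios and gene lists were read from all 6 libraries only. In bulk tissue, fewer cells of a type and less RNA per cell cannot be told apart.

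Promoter sequences are shown first because several of these genes are known targets of the factors they encode or restrain. RefSeq promoter windows on GRCm38.p6 were given for 7 of the 10 genes, and the NF-kappa B consensus decamer was searched on both strands in the 250 bases before each start. It occurred in 7 of the 10 windows of these genes, at 5 of the 7 genes, and in 7.25% of all 32851 windows. The genes with a match were Nfkbia, Nfkb2, Tnfaip3, Rel and Nfkbie; while the windows of Birc3 and Rela held none. The whole windows of Nfkbia and Birc3, the genes that differed most clearly between the groups, are printed first, on the minus strand of chr12:55492648-55492897 and chr9:7873171-7873420, with matching bases in capitals. The Birc3 window runs into the first exon of an annotated transcript at its end.
Nfkbia: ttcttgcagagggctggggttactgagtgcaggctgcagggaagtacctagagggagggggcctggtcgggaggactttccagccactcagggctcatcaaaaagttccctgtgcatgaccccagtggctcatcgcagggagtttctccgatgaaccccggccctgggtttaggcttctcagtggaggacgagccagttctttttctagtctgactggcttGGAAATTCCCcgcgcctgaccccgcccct
Birc3: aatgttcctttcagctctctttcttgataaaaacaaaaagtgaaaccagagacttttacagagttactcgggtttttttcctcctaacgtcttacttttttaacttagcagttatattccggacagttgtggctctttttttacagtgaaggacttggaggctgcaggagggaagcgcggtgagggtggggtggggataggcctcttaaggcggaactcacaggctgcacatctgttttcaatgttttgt
The match at Nfkbia began 29 bases before the start. Stretches of 30 bases follow for the other genes, in the order Nfkb2 at chr19:46304688-46304717 and chr19:46304707-46304736 (plus strand), Tnfaip3 at chr10:19015411-19015440 (minus strand, like Nfkb2 inside the annotated span of its gene), Rel at chr11:23771042-23771071 (minus strand) and Nfkbie at chr17:45555584-45555613 (plus strand), to show the letters that matched and their surroundings. These are the matches nearest to a start in each gene; a further match in Tnfaip3 at 125 bases before the start, and others in the remaining Nfkb2 windows at 236 and 225 bases, are not printed.
Nfkb2: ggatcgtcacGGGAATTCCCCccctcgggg
Nfkb2: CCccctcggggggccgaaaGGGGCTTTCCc
Tnfaip3: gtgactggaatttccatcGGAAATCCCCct
Rel: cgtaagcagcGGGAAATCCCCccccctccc
Nfkbie: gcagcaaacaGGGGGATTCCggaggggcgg
In Nfkb2 and in Rel, the run of 11 capitals holds a pair of matches that overlap by all but 1 base, and the capitals that open the second Nfkb2 stretch are the end of that run. A match is a likeness of letters, and the libraries hold no measurement of binding there.

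Per length, the inhibitor Nfkbia and the activating subunit Rela were the most abundant of the 10 genes, and Rel, Nfkbie and Tnfaip3 the least. Nfkbia had a median of 27.1 FPKM over the 6 libraries, with a range from 16.1 to 54.4. Rela, whose protein carries the activation domain of the classical dimer, had a median of 17.8 FPKM and lay between 13.6 and 26.0. These genes overlapped in range, with Nfkbia above Rela in 5 of 6 libraries. Rela lay above the next gene, Nfkbiz, in every library, and their ranges did not overlap. Nfkbiz, Nfkb2, Nfkb1, Relb and Birc3 followed with medians of 4.64, 4.30, 3.86, 3.58 and 2.71 FPKM, and each overlapped its neighbour in this order. Birc3 stood clear of the lowest genes, since its lowest library (1.96 FPKM) was above the highest of Tnfaip3 (1.25 FPKM). Tnfaip3, Nfkbie and Rel had medians of 0.770, 0.742 and 0.645 FPKM, and their order was not resolved. Rel, which encodes the c-Rel subunit known from lymphocytes, was therefore expressed at a small part of the level of Rela in the aortic wall.

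**Figure D1:**
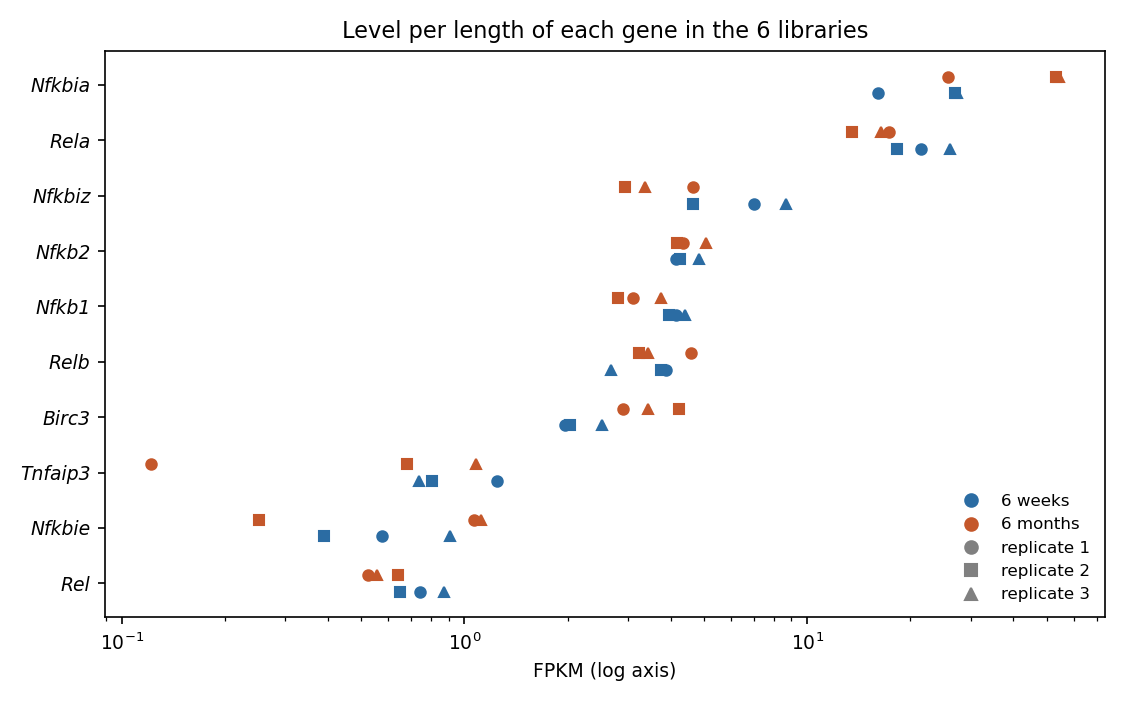
Level of each of the 10 genes in FPKM (log axis) in the 6 aorta libraries, with young mice (6 weeks) in blue, aged mice (6 months) in orange and a marker shape per replicate. Nfkbia (16.1 to 54.4 FPKM) and Rela (13.6 to 26.0) lie to the right of the other genes, and Tnfaip3 spreads most widely.

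The groups were compared over all 16612 genes with the quasi-likelihood test of edgeR. No gene passed an adjusted p below 0.05 (0 genes, 0% of those tested, where DESeq2 called 334), and the lowest adjusted p of the 10 genes was 0.372. At an unadjusted p below 0.05, 3 of the 10 genes passed, namely Birc3 and Nfkbia on the higher side in aged aorta and Nfkbiz on the lower side; while 10.4% of all genes tested passed at this level, 5.56% on the higher and 4.82% on the lower side. In CPM, the groups did not overlap for 3 of the 10 genes, all higher in aged aorta (Nfkbia, Birc3 and Nfkb2), against 7.74% of all genes in that direction, and for 0 of the 10 on the lower side, against 8.78%. With so few genes these shares are a description. The median log2 fold change over the 10 genes was 0.058, near the 0.020 of all genes tested, with 5 positive and 5 negative values, so the list as a whole did not lean to either side.

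**Figure D2:**
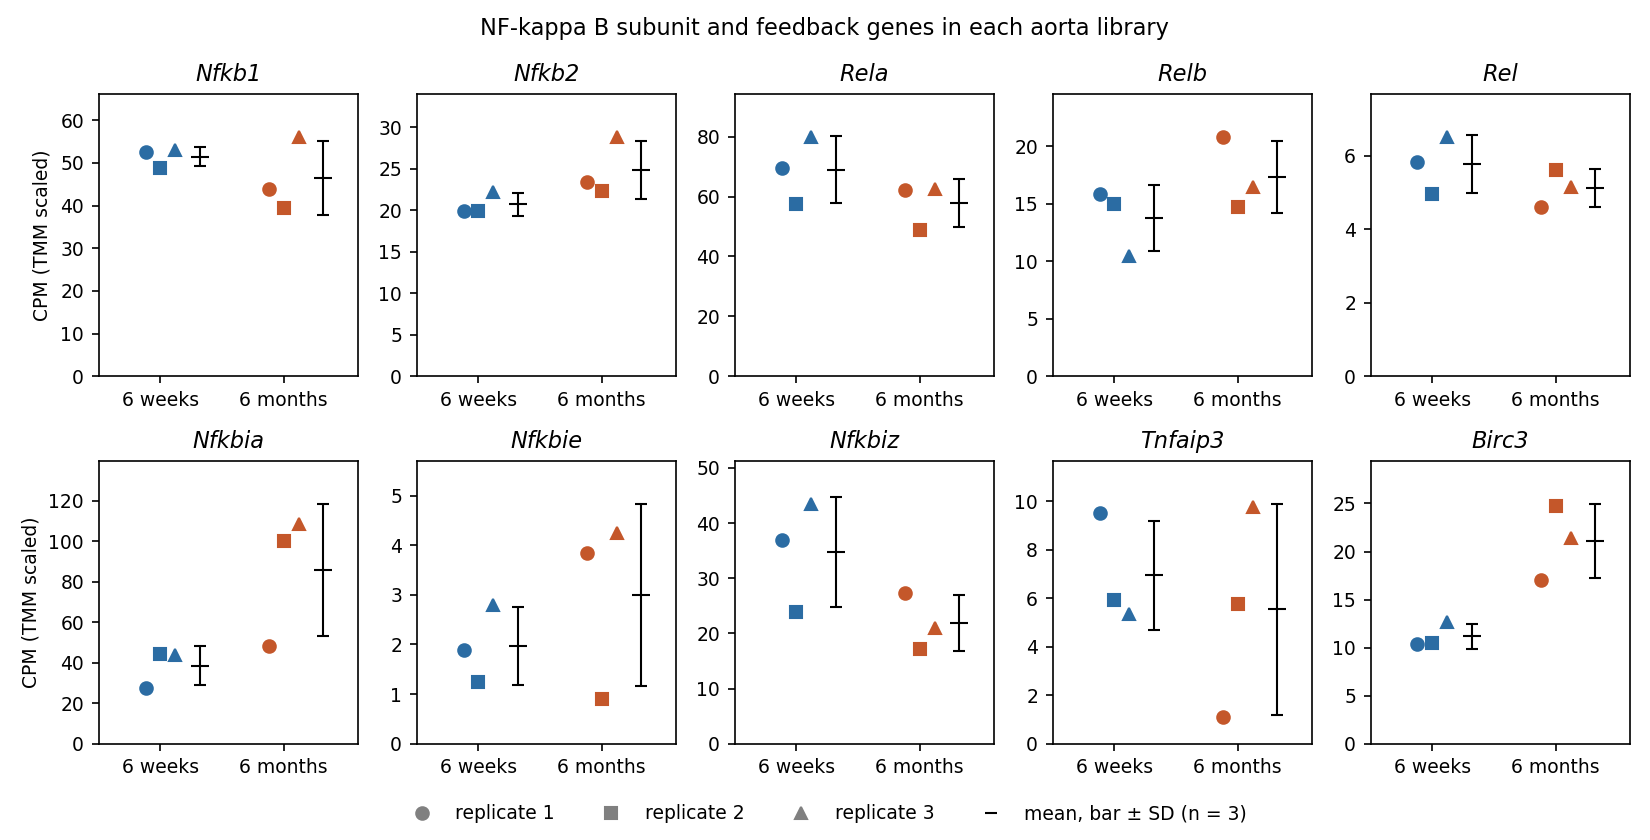
CPM after TMM scaling of each gene in the 3 young and 3 aged libraries (axes start at 0), with a marker shape per replicate and the group mean with SD beside the points. All aged libraries lie above all young libraries for Nfkbia, Birc3 and Nfkb2, and the groups overlap for the other 7 genes.

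Nfkbia encodes the I kappa B alpha inhibitor, which masks the nuclear signal of RelA dimers and is itself a rapid target of them. The gene lies on chromosome 12 of GRCm38 from 55489410 to 55492647 (GENCODE M21). It was at 27.3, 44.3 and 44.0 CPM in young replicates 1, 2 and 3 and at 48.5, 100.2 and 108.6 CPM in aged replicates 1, 2 and 3. Aged replicates 2 and 3 were far above every young library; while aged replicate 1 was just above the highest young library. The fitted log2 fold change of aged over young was 1.16 (standard error 0.34), or 2.23-fold, with an unadjusted p of 0.0107 and an adjusted p of 0.382 from edgeR. With 1 library left out the log2 fold change lay between 0.95 and 1.44, without young replicate 1 it was 0.97, and DESeq2 gave an adjusted p of 0.0575. In FPKM the groups overlapped, because aged replicate 1 (25.7 FPKM) lay below young replicates 2 and 3 (26.9 and 27.3 FPKM).

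Birc3 encodes an inhibitor of apoptosis with ubiquitin ligase activity at the TNF receptor, and is also a target gene of the pathway. It lies on chromosome 9 from 7848699 to 7873186. The young libraries were at 10.4, 10.5 and 12.7 CPM and the aged libraries at 17.1, 24.8 and 21.4 CPM, in the order of replicates 1, 2 and 3. Every aged library was above every young library in CPM and also in FPKM, where the highest young value was 2.51 and the lowest aged value 2.90. The log2 fold change was 0.91 (standard error 0.20), or 1.88-fold, with an unadjusted p of 0.00259 and an adjusted p of 0.372 from edgeR. DESeq2's Wald test called it, with an adjusted p of 0.0196, where it called 2.01% of all genes tested and 1.32% on the higher side. It had the lowest p of the 10 genes, with log2 fold changes from 0.78 to 1.04 when 1 library was left out and an unadjusted p of at most 0.0126 in each of these fits. Words of 50 bases, the read length, were shared with transcripts of other genes over 7.56% of Birc3.

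Nfkbiz encodes I kappa B zeta, a nuclear member of the family that works with p50 at a subset of targets and differs in this from the cytoplasmic inhibitors. It lies on chromosome 16 from 55811375 to 55838899. Young replicates 1, 2 and 3 were at 37.0, 23.8 and 43.4 CPM, and aged replicates 1, 2 and 3 at 27.3, 17.3 and 21.0 CPM. Young replicate 2 lay within the range of the aged libraries, so the groups overlapped. The log2 fold change was -0.67 (standard error 0.27), with an unadjusted p of 0.0408 and an adjusted p of 0.462 from edgeR. In 4 of the 6 edgeR fits with 1 library left out, Nfkbiz did not reach the unadjusted threshold. Without young replicate 1 its log2 fold change was -0.62, and without aged replicate 2 it was -0.52.

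Nfkbie, the epsilon inhibitor of cytoplasmic dimers, and Tnfaip3, a ubiquitin-editing enzyme that removes activating chains from signalling proteins, had the widest spread of the 10 genes in CPM, 4.71-fold and 9.02-fold from the lowest to the highest library. Nfkbie, on chromosome 17 from 45555703 to 45563169, was at 1.88, 1.24 and 2.80 CPM in young and at 3.85, 0.901 and 4.25 CPM in aged replicates 1, 2 and 3, from 34 to 128 counts. Aged replicate 2 was the lowest of all 6 libraries and aged replicates 1 and 3 were the highest. The difference on the log2 scale was 0.60 (standard error 0.61, adjusted p = 0.742 from edgeR). Without aged replicate 2 it was 1.04 (unadjusted p = 0.0463 in edgeR), in a fit that called 0.642% of all genes at an adjusted p below 0.05 and none of the 10. Tnfaip3, on chromosome 10 from 19000910 to 19015657, was at 9.54, 5.95 and 5.36 CPM in young and at 1.08, 5.78 and 9.77 CPM in aged replicates 1, 2 and 3. Its lowest and its highest library were both aged, 9.02-fold apart. Its difference of -0.33 on the log2 scale (standard error 0.67, with an adjusted p of 0.879 in edgeR) turned to 0.16 without aged replicate 1 and to -1.02 without aged replicate 3. No direction can be given for Tnfaip3 from these libraries.

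The subunit genes spanned 1.42-fold to 1.99-fold from their lowest to their highest library in CPM; while the feedback genes spanned 2.38-fold to 9.02-fold. Nfkb1, which encodes p105 and its product p50, lies on chromosome 3 from 135584655 to 135691547, and was at 52.6, 48.8 and 53.0 CPM in young and at 43.9, 39.5 and 56.2 CPM in aged replicates 1, 2 and 3. Its log2 fold change was -0.15 (standard error 0.17). Rela, on chromosome 19 from 5637483 to 5648130, was at 69.4, 57.5 and 80.0 CPM in young and at 62.3, 48.7 and 62.5 CPM in aged libraries, a log2 fold change of -0.25 (standard error 0.19). Rel, on chromosome 11 from 23736847 to 23770970, lay between 4.97 and 6.53 CPM in young and between 4.60 and 5.62 CPM in aged aorta. Its difference was -0.17 on the log2 scale (standard error 0.23). The groups overlapped in CPM for each of these classical subunits, with adjusted p from 0.648 to 0.808 in edgeR.

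The subunits of the alternative arm had the opposite sign. Nfkb2, which encodes p100 and its product p52, lies on chromosome 19 from 46304320 to 46312385, and was at 19.9, 19.9 and 22.3 CPM in young and at 23.3, 22.3 and 28.9 CPM in aged replicates 1, 2 and 3. The highest young library (22.26 CPM) lay just under the lowest aged library (22.29 CPM), and the groups overlapped in FPKM. The difference for Nfkb2 was 0.26 on the log2 scale (standard error 0.17), with an adjusted p of 0.606 from edgeR. Relb, on chromosome 7 from 19606217 to 19629438, was at 15.9, 14.9 and 10.5 CPM in young and at 20.9, 14.7 and 16.5 CPM in aged replicates 1, 2 and 3, a difference of 0.33 on the log2 scale (standard error 0.23) with an adjusted p of 0.635 from edgeR. These groups overlapped, with aged replicate 2 below young replicates 1 and 2. Exons of Nfkb2 share 11.6% of their bases with the antisense gene AC114539.1 (74 to 198 counts) and 6.52% with Psd (248 to 462 counts), against 693 to 965 counts for Nfkb2; whether the counting used strand is not given in the sources used here.

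**Figure D3:**
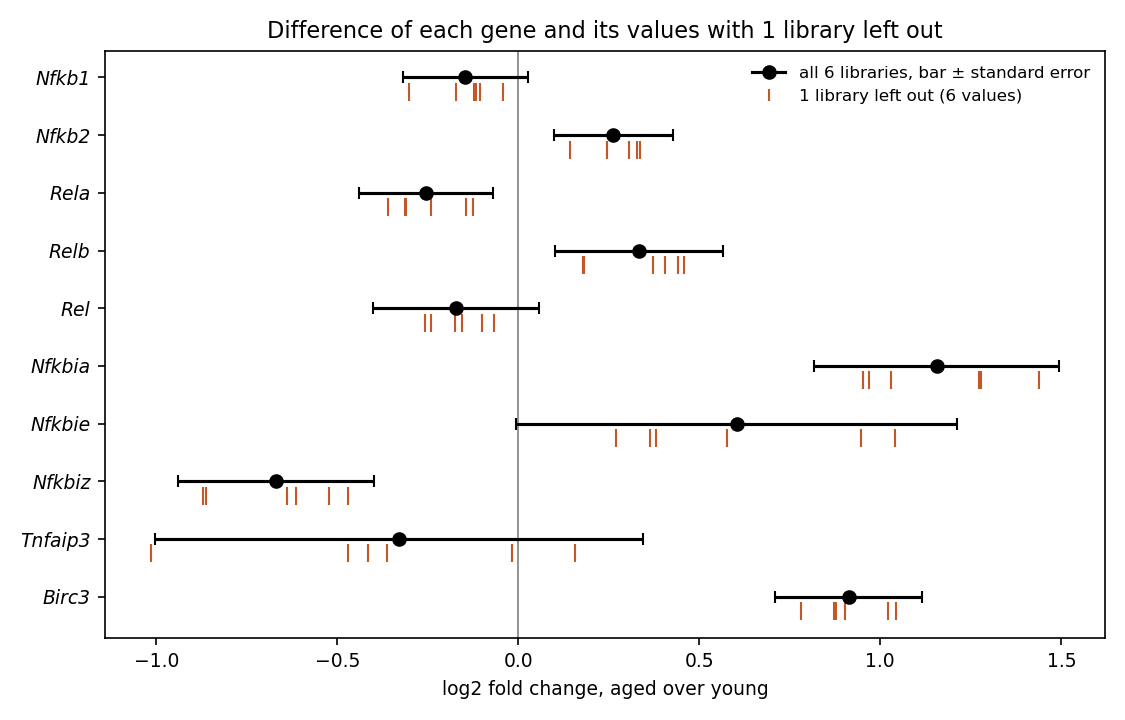
Log2 fold change of aged over young aorta for each gene from edgeR (black point, bar ± standard error) and the 6 values with 1 library left out (orange ticks). Birc3 and Nfkbia stay between 0.78 and 1.44 in all of these fits, Nfkbiz stays below 0, and Tnfaip3 lies on both sides of 0.

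Whether the groups overlapped depended on the scale, although none of the 10 genes changed sign between scales. Mitochondrially encoded genes took 14.9% to 21.2% of the counts in young and 23.1% to 30.4% in aged aorta, and FPKM are not scaled for this. Whether this share accounts for the difference between the scales was not tested. In FPKM the median of all genes moved to -0.12 (limma on log2(FPKM + 1)), and Nfkb1, Rela, Rel and Nfkbiz had all aged values under all young values, as 20.9% of all genes did. For Nfkbiz this gap was a hairline, since both edges round to 4.64 FPKM. In FPKM 1 gene of the 10, Birc3, lay higher without overlap, against 3.24% of all genes. Of all genes at an unadjusted p below 0.05, 53.6% were higher in aged aorta by edgeR and 12.6% by limma on log2(FPKM + 1).

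Ratios of genes within a library do not depend on the scaling, and 3 such ratios were computed from the counts. They were not tested. For each Rela read there were 0.393, 0.770 and 0.550 Nfkbia reads in young and 0.778, 2.06 and 1.74 in aged replicates 1, 2 and 3. Nfkbia reads thus outnumbered Rela reads in aged replicates 2 and 3 only, and aged replicate 1 was next to young replicate 2. Reads are not divided by gene length here, and per length Nfkbia was above Rela in 5 of 6 libraries. The mean log2 ratio was -0.86 ± 0.48 (SD, n = 3) for the young group. For the aged group it was 0.49 ± 0.75 (SD, n = 3).

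The ratio of Nfkb2 to Nfkb1 was the most uniform within groups. It was 0.379, 0.408 and 0.420 in young and 0.532, 0.564 and 0.514 in aged replicates 1, 2 and 3. The libraries of each group lay close together and the groups were apart, with a mean log2 ratio of -1.32 ± 0.077 (SD, n = 3) for young mice against -0.90 ± 0.067 (SD, n = 3) for aged mice. The difference was 0.42 on the log2 scale, and neither gene alone passed the test. The ratio of Relb to Rela was 0.229, 0.260 and 0.131 in young and 0.335, 0.303 and 0.264 in aged replicates 1, 2 and 3. The nearest libraries, young replicate 2 and aged replicate 3, were 0.260 and 0.264. Both ratios set an alternative subunit against a classical one, with no overlap of the groups. In CPM 16.5% of all single genes also had groups that did not overlap, and the share among pairs of genes was not computed, so these separations are a description.

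**Figure D4:**
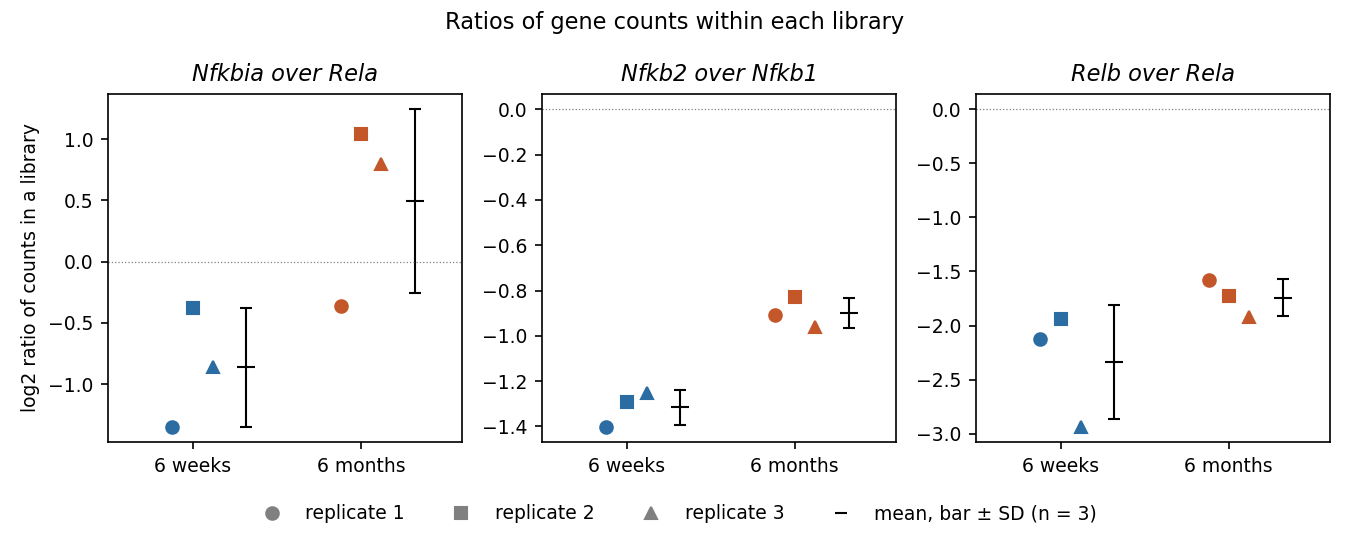
Log2 ratio of counts of Nfkbia over Rela, Nfkb2 over Nfkb1 and Relb over Rela in each library, with the group mean and SD beside the points. The aged libraries lie above the young libraries in each panel, with the clearest gap for Nfkb2 over Nfkb1 (-1.40 to -1.25 against -0.96 to -0.83).

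The rest of the pathway was read from lists of its genes, counted at an unadjusted p below 0.05 in edgeR, where 5.56% of all genes passed on the higher and 4.82% on the lower side. Of 14 genes for the IKK complex, its upstream kinases and their partner proteins, 0 were higher and 1 was lower at this level. The median log2 fold change was -0.12. The lower gene was Ikbkg, the regulatory subunit that links the kinases to ubiquitin chains, at 18.2, 9.69 and 16.2 CPM in young and 4.60, 3.05 and 6.94 CPM in aged replicates 1, 2 and 3 (log2 fold change -1.60, standard error 0.37, adjusted p = 0.372 from edgeR and 0.0074 from DESeq2). Every aged library was below every young library for Ikbkg. The next smallest p of the list was that of Ikbke, a related kinase (log2 fold change -0.44), and the most abundant genes of the list, Tab2, Irak1 and Map3k7, were at -0.06, -0.10 and -0.42.

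Of 17 adaptor and ubiquitin ligase genes, 0 were higher and 3 lower at this level, with a median of -0.083. Traf3, which holds the kinase of the alternative arm in check, was at 5.33 to 22.8 CPM in young and 2.71 to 5.17 CPM in aged aorta (log2 fold change -1.71, standard error 0.59, adjusted p = 0.415 from edgeR). Traf5 was at 32.7 to 35.1 CPM in young and 23.1 to 28.4 CPM in aged aorta, a log2 fold change of -0.41. The third was Malt1, a paracaspase of the antigen receptor arm, with overlapping groups (log2 fold change -1.08). The groups did not overlap for Traf3 or Traf5, although the gap for Traf3 was small beside its spread in young aorta. The abundant members Rbck1, Birc2 and Myd88 were at -0.05, 0.34 and 0.12, so that Birc2, the neighbour and close relative of Birc3, had the smaller difference. Of 15 other inhibitors and brakes, 1 was higher and 0 lower, namely Pdlim2, a ligase that directs nuclear RelA to destruction, at 19.7 to 35.1 CPM in young and 43.8 to 72.2 CPM in aged aorta (log2 fold change 1.16, adjusted p = 0.377 from edgeR and 0.0166 from DESeq2). Usp18 was at 1.16, and the abundant Rnf11, Tax1bp1 and Tnip2 were at 0.19, 0.19 and -0.15.

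Most tested genes from a list that NF-kappa B is known to switch on had a positive log2 fold change. Of 34 listed target genes, 25 had enough counts to be tested; 24 of these had a positive log2 fold change, 8 were higher at an unadjusted p below 0.05 (32% of those tested, against 5.56% of all genes) and 0 were lower. The median log2 fold change was 0.77. Genes with enough counts only in aged aorta pass the filter more easily than genes scarce in both groups, so this share is a description of the list. Lcn2 and Il1b passed through their aged libraries. Lcn2 had 6, 2 and 12 counts in young and 74, 41 and 38 in aged replicates 1, 2 and 3. Il1b had 4, 2 and 11 counts in young and 14, 17 and 40 in aged replicates 1, 2 and 3. The shares without such genes were not computed. Among all genes tested, 8654 of 16612 had a positive value. In CPM the groups were apart for 6 target genes, all higher in aged aorta. A positive sign could rest on 1 library. Selp was at 4.99, 3.13 and 25.3 CPM in aged replicates 1, 2 and 3, against 5.65 to 6.77 CPM in young aorta. Sod2 was at 59.3, 153 and 52.2 CPM in these aged libraries, against 51.7 to 77.5 CPM in young aorta. Csf1, the growth factor of macrophages, was at 42.6, 48.4 and 67.2 CPM in young and 79.4, 112 and 104 CPM in aged replicates 1, 2 and 3 (log2 fold change 0.90, adjusted p = 0.377 from edgeR and 0.0373 from DESeq2). Lcn2, a secreted iron-binding defence protein, was at most 0.350 CPM in young and 1.09 to 2.23 CPM in aged aorta. The abundant F3, which starts coagulation, and Ier3 were at 0.87 and 0.30 with overlapping groups. The acute cytokine genes were scarce, and Ccl20 and Csf2 had 0 counts in every library.

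**Figure D5:**
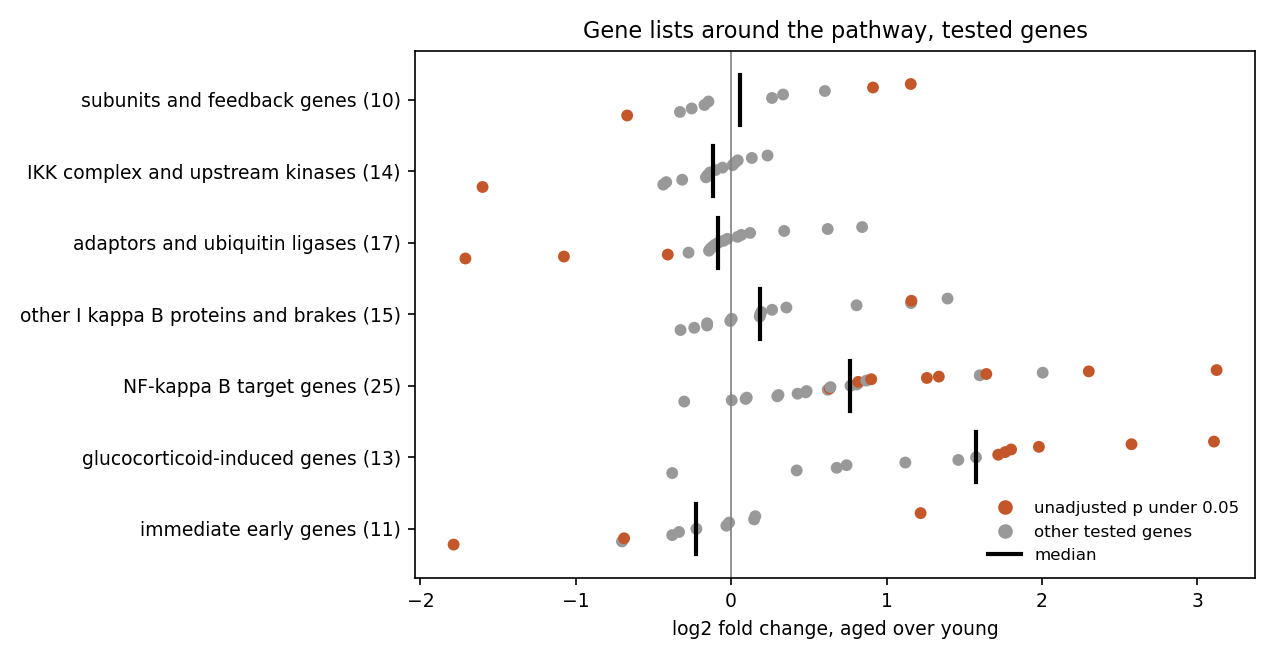
Log2 fold change of aged over young aorta for the tested genes of each list (number in brackets), with genes at an unadjusted p below 0.05 in orange and the list median as a black bar. The medians of the IKK complex and adaptor lists lie just below 0 (-0.12 and -0.083). That of the target genes lies at 0.77 and that of the glucocorticoid-induced genes at 1.58.

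Lists of cell type markers were read in the same way. All 11 macrophage markers had a positive log2 fold change, and 10 of 11 were higher at an unadjusted p below 0.05 in edgeR. They summed to 109 to 149 CPM in young and 151 to 496 CPM in aged aorta, where aged replicate 2 had the lowest sum. Fibroblast markers had a positive log2 fold change in 5 of 6 genes, with 3 higher at this level and a median of 1.32, and summed to 3526 to 5550 CPM in young and 3123 to 8962 CPM in aged aorta, again lowest in aged replicate 2. Smooth muscle markers had a positive log2 fold change in 0 of 6 genes, with 3 lower at this level and a median of -0.32, and summed to 32232 to 40140 CPM in young and 27960 to 33326 CPM in aged aorta. Endothelial markers summed to 401 to 489 CPM in young aorta, to 342 and 370 CPM in aged replicates 2 and 1, and to 1686 CPM in aged replicate 3. Brown fat markers reached 1867 CPM in aged replicate 2 against 71.7 to 561 CPM elsewhere. Cardiac muscle markers reached 275 CPM in young replicate 1 against 41.0 to 56.9 CPM elsewhere. Lymphocyte markers were near the detection limit, with sums of at most 6.78 CPM for T cells and 6.98 CPM for B cells. The 5 neutrophil markers were also scarce, and summed to 0.372 to 1.49 CPM in young and 2.35 to 4.11 CPM in aged aorta. All 3 tested neutrophil markers had a positive log2 fold change, and 1 was higher at an unadjusted p below 0.05 in edgeR. Ly6g of that list had 0 counts in every library. The part of these cells in the values of the 10 genes was not tested.

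Nfkbia is also known as a gene that glucocorticoids induce, so a list of such genes was read. Of 13 genes, 12 had a positive log2 fold change, 6 were higher at an unadjusted p below 0.05 and 0 were lower, with a median of 1.58. Fkbp5, a co-chaperone of the receptor and the classical reporter of the hormone, was at 6.27, 16.4 and 14.7 CPM in young and 55.6, 177 and 88.9 CPM in aged replicates 1, 2 and 3 (log2 fold change 3.11, adjusted p = 0.306 from edgeR and 1.89e-07 from DESeq2). The order of the aged libraries differed among the genes named here from this list. Aged replicate 1 was the lowest of its group for Fkbp5, Mt1 and Mt2, as for Nfkbia. For Dusp1 and Cebpd the lowest was aged replicate 2 (Cebpd at 70.9, 37.9 and 70.7 CPM in aged replicates 1, 2 and 3). Cebpd, Mt1 and Mt2 were at 1.80, 1.76 and 2.58; while Dusp1, which immediate early signals induce as well, was at -0.38. Of 11 immediate early genes, 1 was higher (Junb, log2 fold change 1.22) and 2 were lower (Atf3, -1.79, and Nr4a1, -0.69) at this level, and the abundant Fos was at -0.34 with overlapping groups. What the glucocorticoid-induced genes and Nfkbia share was not tested.

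The genes outside the family whose profile over the 6 libraries lay closest to that of Nfkbia, by Euclidean distance of centred log2 CPM, were Slc7a10, Arrdc3, Car2, Slc7a5 and Prkg2, at distances of 0.456 to 0.539. Arrdc3, an arrestin-like gene, was at 73.1, 126 and 107 CPM in young and 134, 240 and 209 CPM in aged replicates 1, 2 and 3, and Slc7a5, an amino acid transporter, at 7.00, 7.85 and 8.95 CPM in young and 10.1, 19.7 and 18.1 CPM in aged replicates 1, 2 and 3. They shared with Nfkbia an aged replicate 1 that lay close to the young libraries and aged replicates 2 and 3 well above them. Slc7a10, Car2 and Prkg2 were at 1.45 CPM or less in every library, and the likeness rests on these 6 libraries.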

How the data were processed

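RNA from the aorta of 3 young and 3 aged mice was made into SMARTER mRNA-Seq libraries and sequenced single-ended for 50 cycles, per the labels and the study's methods. The authors deposited a table of read counts per gene (whole numbers, 31049632 to 45832185 per library) and a table of FPKM, scaled for gene length and library. The submitters' processing notes name mm10; the aligner, the counting tool and the annotation are not given in the sources used here. Gene places are those of GENCODE M21 on GRCm38, the same assembly.

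The counts were filtered with filterByExpr (minimum count of 10, minimum total of 15), scaled by TMM and fitted by edgeR 4.0.16 (quasi-likelihood, no covariates, R 4.3.3), with Benjamini-Hochberg adjustment over all genes tested and a threshold of 0.05. Standard errors are the log2 fold change divided by the square root of F. Per the design text and the study's methods, each library is 1 mouse. Log2 CPM for the likeness measure used a prior count of 2. The alternatives comprised RLE scaling, keeping every gene with a count, a minimum of 10 counts in all libraries, TMM without mitochondrial genes, a replicate block, leaving out single libraries, robust fitting, DESeq2 1.42.0, and limma 3.58.1 on FPKM after adding 1 or 0.1 and taking log2. The overlap of groups in FPKM was added after seeing the data.

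The 10 genes, the lists and the rule for naming were chosen with earlier results of these data known. Named are the 10 genes, the 3 most abundant tested genes (mean FPKM) and the 2 with the smallest p of each pathway list, and the 5 genes nearest to Nfkbia. Malt1, Ccl20, Csf2, Selp, Sod2, Il1b, Itgam and Ly6g were named after their values were seen.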

Additional observations from a re-analysis of the deposited data

How the results depend on the processing

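The count of 0 genes at an adjusted p below 0.05 held in edgeR with RLE size factors, either other filter, mitochondrial genes removed, the replicate block and robust fitting, and in limma on FPKM; at an unadjusted p below 0.05 the count was 1723 in edgeR. DESeq2 called 334 genes, Birc3 among them (log2 fold change 0.92, adjusted p 0.0196). Leaving out single libraries gave 0 to 110 called genes, with 110 when aged replicate 2 was dropped. Of the 10 genes, 3 were at an unadjusted p below 0.05, 5 by limma on log2(FPKM + 1) (Nfkb1 and Rela added on the lower side), 2 by limma on log2(FPKM + 0.1) (Birc3 and Nfkbiz, with Nfkbia at an unadjusted p of 0.0521), and 2 to 3 with 1 library left out. Tnfaip3 (-0.33) ran from -1.02 to 0.16 with 1 library left out and was reversed without aged replicate 1, and no other gene of the 10 changed sign under any of the 15 alternatives; the cause was not tested. With the replicate block 3 of the 10 genes were at an unadjusted p below 0.05 and 0 genes in all were called; deviations of same-numbered replicates correlated at 0.0786, 0.117 and 0.0957, not all above 0.1, and the samples share only a number. With 3 mice a group, differences larger than their standard error, such as those of Nfkb2, Relb and Rela, were not resolved, and the counts of Nfkbie and Tnfaip3 (as low as 34 and 36) add counting error.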
